A study of Mus musculus with 7 samples.

Results

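The DNA replication and mitosis genes described here are 44 of the 49585 genes listed for each library of MS-1 cells, a mouse endothelial line derived from pancreatic islets. They were chosen by name: 22 genes of S phase, from the Mcm2 to Mcm7 helicase to E2f1, and 22 genes of mitosis, from Ccna2 to Foxm1. All 44 names were found once in each deposited table, and all 44 passed the filter on low counts. RNA was sequenced from 4 libraries of cells with forced expression, by their labels, of the gene of lipoprotein lipase (LPL), which splits the triglyceride of blood lipoproteins, and from 3 libraries of wild-type control cells. All 7 were labelled as MS-1 cells grown in DMEM. The labels give neither the species of the LPL sequence, nor how it was introduced, nor whether the overexpressing cells came from 1 clone, and no vector-only library was among those analysed. They do not say whether replicates were separate cultures either, so that p-values measure the spread between these libraries, which may be technical.

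Cells copy their DNA in S phase and divide the copies in mitosis, and each step is driven by genes that are transcribed in waves. Before S phase, licensing factors load the ring-shaped MCM helicase on replication origins. E2F transcription factors then raise the genes of origin firing, the replication fork and deoxynucleotide supply. Later in the cycle the B-MYB and FOXM1 factors, bound with the MuvB complex at promoters, raise the genes of the spindle, the kinetochore and chromosome segregation. The same RNAs fall together when cells leave the cycle, which is why they are widely read as a record of proliferation. Endothelial cells of most adult vessels seldom divide, whereas a line in culture divides continuously.

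Counted reads of the sense orientation numbered 24328418 to 29210847 per LPL overexpression library and 26514501 to 28104402 per control library. Lpl itself had 10867, 12691, 10901 and 12753 counts in the LPL overexpression libraries and 1, 1 and 6 counts in the controls, and Lpl was not a member. Endothelial markers were abundant in every library. The 12 endothelial markers summed to between 4192 and 4308.5 TPM with LPL overexpression and between 4635 and 4640.5 TPM in controls, with 2 of 12 higher and 7 lower at an adjusted p under 0.05. The LPL overexpression libraries also carried genes of pigment cells. The 12 pigment cell markers summed to between 2208 and 2328 TPM there, with none at 0, and to between 2.75 and 2.88 TPM in controls, where 6 to 9 of the 12 were at 0, Tyrp1, Dct, Mlana, Tyr, Sox10 and Oca2 in all 3 libraries. All 12 were called higher. Which cells gave these reads, and what part they have in the member values below, was not tested. Of 8 mural cell and fibroblast markers, 3 were tested and 2 were higher, with sums of 2.09 to 2.69 TPM with LPL overexpression and 1.09 to 1.20 TPM in controls. Of 8 islet and exocrine markers, 2 were tested and 1 was higher, with sums of 15.5 to 18.7 TPM with LPL overexpression and 12.9 to 15.1 TPM in controls. Markers of blood cells summed to at most 3 counts in any library. Irf1, which encodes a factor induced by interferon and was picked after its values were seen, had 240.0 TPM in replicate 4 of LPL overexpression and 16.1 to 18.4 TPM in the other 3 libraries of that group, against 17.9 to 18.4 TPM in controls. Levels are given as the authors' TPM (transcripts per 1000000), reads divided by the exonic length of the gene and scaled to the same total in each library, and fold changes as log2 of LPL overexpression over control from the counts, with TMM scaling. The TPM values run slightly higher in the LPL overexpression libraries on this scale, with a median log2 difference over all genes of 0.027, against 0.0024 with TMM, so that a small estimate can differ in sign from the difference in TPM.

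The genes of replication and division differed little between the groups. Of the 44 members, 18 (40.9%) passed an adjusted p of 0.05, 12 higher and 6 lower with LPL overexpression, while 43.2% of the 13639 genes tested did so. The other 26 did not pass, and their 95% intervals lay between a fall of 8.18% and a rise of 10.1%. No member differed by as much as 1.25-fold, a size that 19.6% of all genes tested reached. Among the 7028 genes with a mean TMM-scaled count (CPM) at least as high as the lowest member's, 50.3% were called and 6.4% reached 1.25-fold. The largest rise among the members was that of Gins1, with a log2 fold change of 0.19, and the largest fall that of Ccne2, with -0.18. The 95% intervals of all 44 members lay within 1.25-fold in either direction, and the outermost bounds were a fall of 16.5% and a rise of 22.4%. The same was true of the intervals of 60.7% of all genes tested, and of 88.5% of the 7028 genes at the members' level. The 44 members had between 579 and 32062 counts per library, and their standard errors ranged from 0.024 to 0.050 on the log2 scale, with a median of 0.027. In bulk RNA, a change in the number of cells in a phase and a change in RNA per cell cannot be told apart, and the same holds for fewer cells of a type and less RNA per cell.

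**Figure D1:**
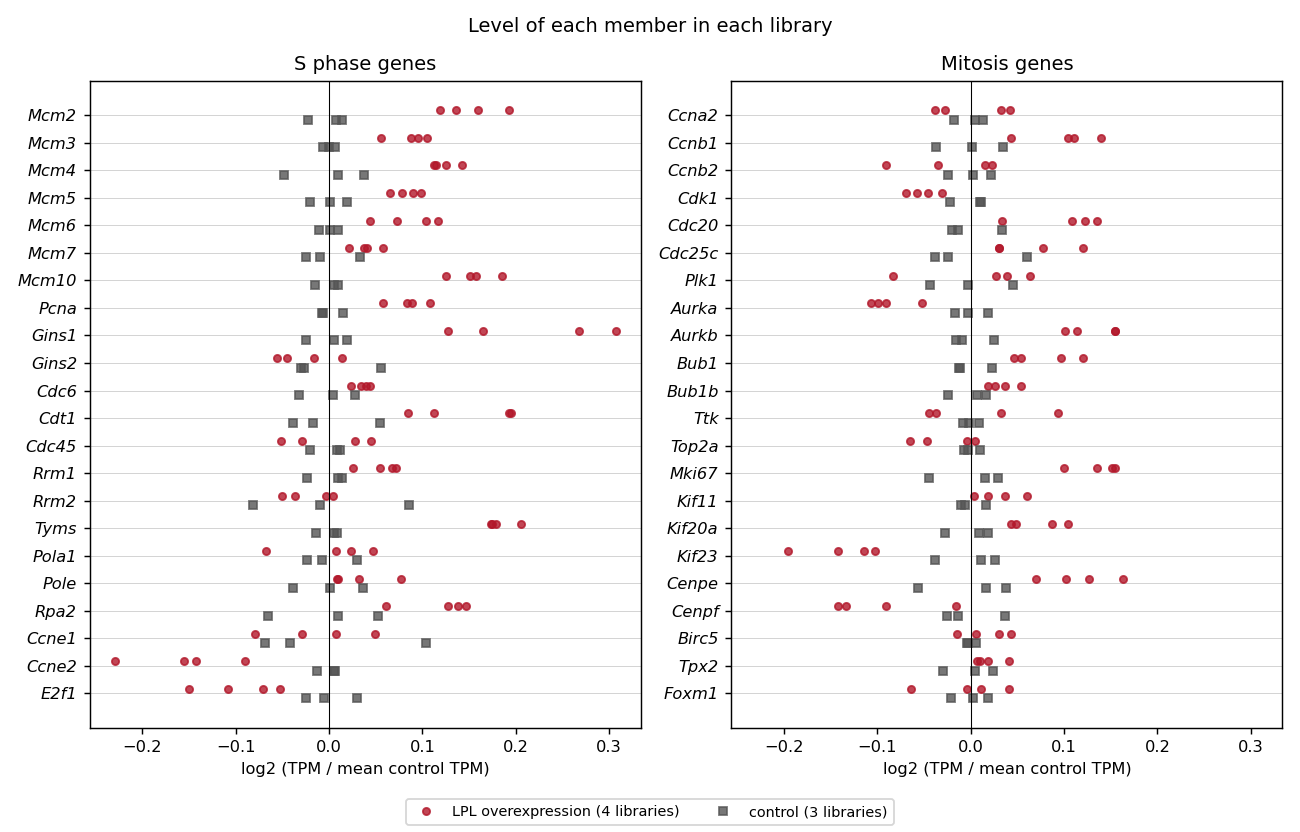
Level of each of the 44 members in each library, as log2 of TPM over the mean control TPM (x axis), for S-phase genes on the left and mitotic genes on the right. Circles are the 4 LPL overexpression libraries and squares the 3 control libraries. All points lie close to 0, and the groups are apart for genes such as Tyms, Mcm2 and Gins1 (to the right) and Ccne2 and Kif23 (to the left).

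The S-phase genes that passed were mostly higher. Of 22 members, 8 rose, 2 fell and 12 did not pass, where 21.9% of all genes tested were called higher and 21.3% lower. Their median log2 fold change was 0.042, and that of all genes tested was 0.0024. Summed over the 22 genes, the level was 3857, 3876, 3867 and 3877 TPM in the LPL overexpression libraries, against 3753, 3687 and 3681 TPM in the controls. Every LPL overexpression library thus lay above every control, by a ratio of group means of 1.04. On TMM-scaled CPM the ratio was 1.03. In the same 4 libraries the pigment cell markers summed to at least 2208 TPM, and their part in this sum was not tested.

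The MCM2-7 complex, whose 6 subunits form the replicative helicase, was abundant and changed by small steps. Mcm2 stood at 174, 171, 169 and 178 TPM in the LPL overexpression libraries, against 157, 153 and 156 TPM in the controls. All 4 values lay above the 3 controls, and the log2 fold change was 0.13 (SE 0.025, edgeR adjusted p = 3.27e-05). Mcm4 had 247, 245, 251 and 246 TPM in the LPL overexpression libraries, against 233, 228 and 219 TPM in the controls. Its groups did not overlap either, with a log2 fold change of 0.10 (SE 0.025, edgeR adjusted p = 0.00122). Mcm3 reached 401, 390.1, 399 and 403 TPM in the LPL overexpression libraries, against 374, 375 and 377 TPM in the controls, and its change of 0.059 (SE 0.024, edgeR adjusted p = 0.0414) was the smallest among the members called. Mcm5 and Mcm6 lay just outside the threshold, although their libraries did not overlap in TPM. Mcm5 was at 322 ± 3.20 TPM with LPL overexpression and 304 ± 4.14 TPM in controls (SD, n = 4 and 3), with a log2 fold change of 0.056 (SE 0.024, edgeR adjusted p = 0.0563), and Mcm6 at 380.4 ± 8.57 TPM with LPL overexpression and 359 ± 2.59 TPM in controls, with 0.057 (SE 0.025, edgeR adjusted p = 0.0535). Mcm7 was at 332 ± 3.43 TPM with LPL overexpression and 323 ± 6.70 TPM in controls, and its change of 0.012 (SE 0.024, edgeR adjusted p = 0.717) had a 95% interval of -0.036 to 0.061. The 6 subunits thus had positive estimates between 0.012 and 0.13 on the log2 scale, of which those of Mcm2, Mcm3 and Mcm4 passed. Each of the 6 estimates was also positive in all 14 alternative settings.

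Licensing and origin firing factors included the largest rise. Gins1 encodes a subunit of the GINS complex, which joins the helicase when it is activated. It had 58.7, 53.1, 51.8 and 57.1 TPM in the LPL overexpression libraries, against 46.6, 48.1 and 47.6 TPM in the controls. Its lowest LPL overexpression library lay above its highest control, and the log2 fold change was 0.19 (SE 0.050, edgeR adjusted p = 0.00157), with an interval of 0.089 to 0.29. Gins2, which encodes another subunit of the same complex, was at 61.2 ± 1.32 TPM with LPL overexpression and 62.2 ± 2.11 TPM in controls, with a log2 fold change of -0.052 (SE 0.034, edgeR adjusted p = 0.219) and an interval of -0.12 to 0.016. The intervals of these 2 subunits did not overlap, and the difference between the genes was not tested. Cdt1, the licensing factor that loads MCM rings on origins, had 109, 101, 103 and 109 TPM in the LPL overexpression libraries, against 94.3, 92.9 and 99.1 TPM in the controls. The groups were apart by a small margin, and the log2 fold change was 0.12 (SE 0.032, edgeR adjusted p = 0.00199). Cdc6, its partner in loading, was at 53.3 ± 0.327 TPM with LPL overexpression and 52.0 ± 1.08 TPM in controls, with 0.0085 (SE 0.031, edgeR adjusted p = 0.855). Mcm10, needed to activate the loaded helicase, had 47.8, 48.7, 49.8 and 48.9 TPM in the LPL overexpression libraries, against 43.4, 43.98 and 44.1 TPM in the controls, a log2 fold change of 0.13 (SE 0.029, edgeR adjusted p = 2.19e-04). Cdc45, the third part of the active helicase, was at 89.5 ± 2.84 TPM with LPL overexpression and 89.6 ± 1.11 TPM in controls and did not pass, with -0.028 (SE 0.036, edgeR adjusted p = 0.572).

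At the fork, 1 of 4 members passed. Rpa2, a subunit of the protein that coats single-stranded DNA, was at 62.5 ± 1.67 TPM with LPL overexpression and 57.6 ± 2.38 TPM in controls, with a log2 fold change of 0.093 (SE 0.038, edgeR adjusted p = 0.0451). Pcna, the sliding clamp that holds polymerases on DNA, was among the highest members, with 460.3, 468, 462 and 452 TPM in the LPL overexpression libraries, against 432, 432 and 439 TPM in the controls. The TPM values of the groups did not overlap, while the log2 fold change of 0.058 (SE 0.025, edgeR adjusted p = 0.0518) fell short of the threshold. Reads of Pcna-ps2, a pseudogene by its symbol, numbered only 26 to 46 in the LPL overexpression libraries and 37 to 40 in controls. Pola1, the catalytic subunit of the primase-coupled polymerase, was at 58.1 ± 1.98 TPM with LPL overexpression and 57.9 ± 1.09 TPM in controls, with -0.024 (SE 0.028, edgeR adjusted p = 0.528). Pole, the catalytic subunit of the leading strand polymerase, was at 76.6 ± 1.70 TPM with LPL overexpression and 74.9 ± 1.96 TPM in controls, with 0.0052 (SE 0.025, edgeR adjusted p = 0.890). The sign of the Pola1 estimate turned in 4 and that of Pole in 3 of the 14 alternative settings.

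Genes of deoxynucleotide supply differed among themselves. Tyms, the thymidylate synthase gene, had 68.0, 67.8, 69.3 and 67.9 TPM in the LPL overexpression libraries, against 60.5, 60.3 and 59.5 TPM in the controls. The 4 values lay within a narrow band above all controls, with a log2 fold change of 0.16 (SE 0.027, edgeR adjusted p = 3.78e-06), the second largest rise of the members. The subunits of ribonucleotide reductase, which makes deoxynucleotides from ribonucleotides, did not pass. Rrm1, the large subunit, was at 175 ± 2.49 TPM with LPL overexpression and 169 ± 2.36 TPM in controls, with 0.028 (SE 0.024, edgeR adjusted p = 0.371). Rrm2, the small subunit whose level limits the enzyme in S phase, had 543, 555, 538 and 558 TPM in the LPL overexpression libraries, against 591, 553 and 526 TPM in the controls. Its controls spread more widely than its LPL overexpression libraries and enclosed all 4 of them, with -0.048 (SE 0.027, edgeR adjusted p = 0.154).

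The 2 S-phase members that fell are regulators of S-phase entry. Ccne2, the gene of cyclin E2, an activator of CDK2 at the start of S phase (ENSMUSG00000028212.16, chromosome 4, 11191351 to 11204779, plus strand, mm10), had 37.0, 40.7, 39.3 and 39.0 TPM in the LPL overexpression libraries, against 43.6, 43.0 and 43.6 TPM in the controls. Each LPL overexpression library was below each control, and the log2 fold change was -0.18 (SE 0.040, edgeR adjusted p = 2.34e-04). Ccne1, its paralog of the same function, was at 42.2 ± 1.58 TPM with LPL overexpression and 42.5 ± 2.79 TPM in controls, with -0.038 (SE 0.042, edgeR adjusted p = 0.505) and an interval of -0.12 to 0.047. E2f1, an activating E2F factor, had 74.3, 69.5, 73.4 and 71.5 TPM in the LPL overexpression libraries, against 78.7, 75.8 and 76.8 TPM in the controls, a log2 fold change of -0.12 (SE 0.034, edgeR adjusted p = 0.00247) with no overlap between the groups.

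Calls close to the threshold depended on single libraries and on the settings of the fit. The call of Mcm3 ended without LPL overexpression replicate 1 (0.0791), LPL overexpression replicate 3 (0.0697), LPL overexpression replicate 4 (0.0568), control replicate 1 (0.161) and control replicate 2 (0.0995), with edgeR adjusted p in brackets, and it also ended with no filter on low counts (0.0507). That of Rpa2 ended without LPL overexpression replicate 2 (0.0760), LPL overexpression replicate 3 (0.0695), control replicate 1 (0.0973) and control replicate 2 (0.280), and with all libraries it ended in DESeq2 (adjusted p = 0.0904) and with no filter on low counts (0.0666 in edgeR). In turn, Mcm5 passed without LPL overexpression replicate 2 (0.0250) and control replicate 3 (0.0262), Mcm6 without LPL overexpression replicate 1 (0.0258) and LPL overexpression replicate 4 (0.0265), Pcna without LPL overexpression replicate 4 (0.0185) and control replicate 3 (0.0306), and Rrm2, as a fall, without control replicate 3 (0.0231). With all libraries, Mcm5, Mcm6 and Pcna also passed in DESeq2 (adjusted p = 0.0380, 0.0418 and 0.0449). With upper-quartile factors they passed too (0.00805, 0.00812 and 0.00755 in edgeR). In all, they passed in 7, 8 and 8 of the 14 alternative settings, and the called Mcm3 and Rpa2 in 7 and 8. S-phase members called higher numbered 11 with upper-quartile factors and 6 with no filter on low counts. Mcm2, Mcm4, Mcm10, Gins1, Cdt1, Tyms, Ccne2 and E2f1 kept their calls and directions in all 14 alternative settings.

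**Figure D2:**
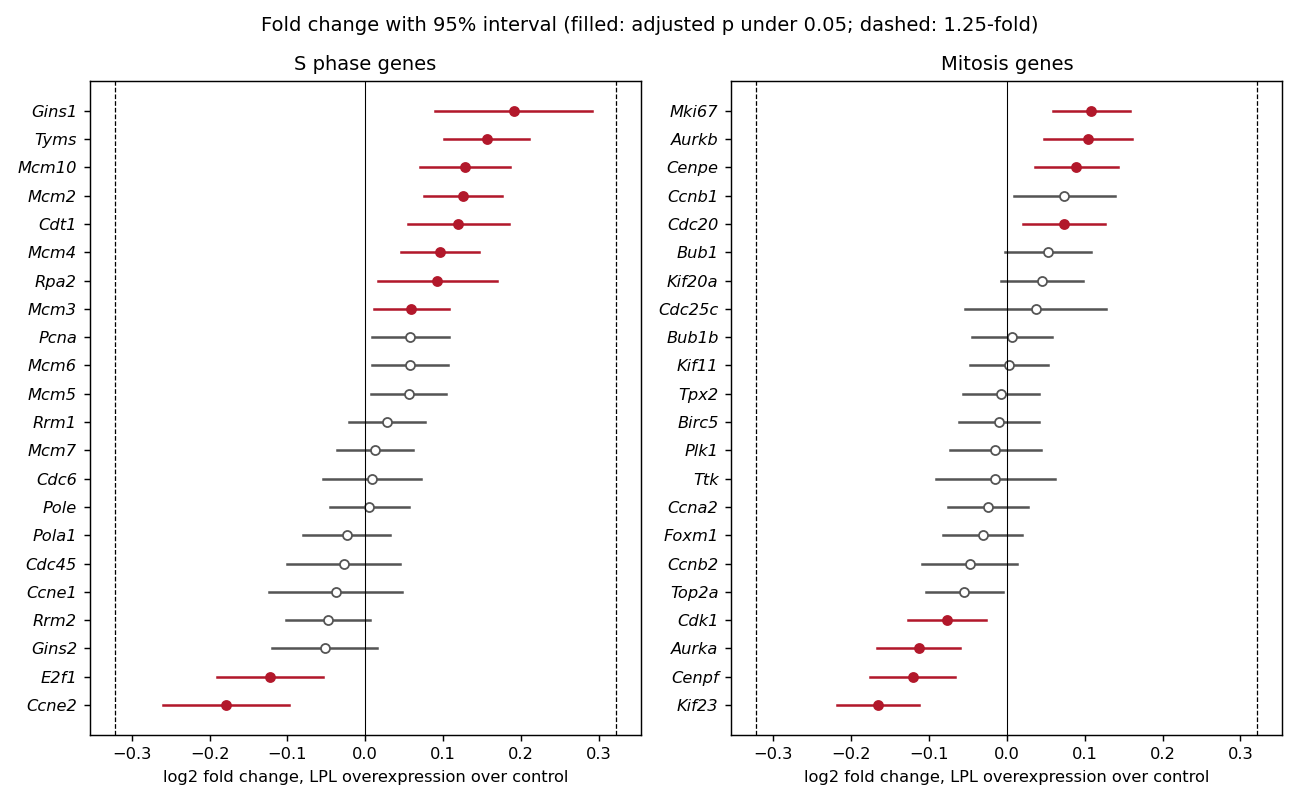
Log2 fold change of LPL overexpression over control (x axis) for the 22 S-phase and the 22 mitotic members, sorted by size. Points are edgeR estimates, bars are 95% intervals, filled red points passed an adjusted p of 0.05, and dashed lines mark 1.25-fold. The S-phase panel has 8 calls to the right and 2 to the left, the mitotic panel 4 and 4, and no bar crosses a dashed line.

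The mitotic genes did not shift to either side on TMM-scaled counts. Of 22 members, 4 rose, 4 fell and 14 did not pass. The share called was 36.4%, where 43.2% of all genes tested were called, 21.9% higher and 21.3% lower. The median log2 fold change of the mitotic members was -0.0091, beside 0.0024 over all genes tested. The split of the calls depended on the scaling. It was 7 higher and 2 lower with limma on log2(TPM + 0.5), and 7 higher and 3 lower with upper-quartile factors, and the share of calls over all genes that were higher was 61.3% and 59.2% there, against 50.7% with TMM. Summed TPM was 3888, 3906, 3930.3 and 3852 in the LPL overexpression libraries, against 3843, 3827 and 3813 in the controls. The groups did not overlap in TPM, by a ratio of means of 1.02, but on TMM-scaled CPM the ratio was 0.998. The difference between the S-phase and mitotic genes was not tested.

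The kinase that drives mitosis and its cyclins were close to level. Cdk1 encodes that kinase and had 245, 248, 243 and 241 TPM in the LPL overexpression libraries, against 249, 255 and 255 TPM in the controls. All 4 values lay below the controls, and the log2 fold change was -0.077 (SE 0.025, edgeR adjusted p = 0.00935). Ccna2, the cyclin A gene of S phase and G2, was at 231 ± 6.59 TPM with LPL overexpression and 231 ± 2.59 TPM in controls, with -0.024 (SE 0.025, edgeR adjusted p = 0.477). Ccnb1, the main mitotic cyclin, had 66.2, 70.7, 69.4 and 69.0 TPM in the LPL overexpression libraries, against 65.8, 62.6 and 64.3 TPM in the controls. These did not overlap in TPM, and the log2 fold change was 0.074 (SE 0.032, edgeR adjusted p = 0.0596). Ccnb2, a second B-type cyclin, had 222, 229, 231 and 213 TPM in the LPL overexpression libraries, against 230.4, 227 and 223 TPM in the controls. Its LPL overexpression libraries spanned a wider range than its controls, with -0.048 (SE 0.030, edgeR adjusted p = 0.211). Cdc25c, a phosphatase that activates CDK1, was the lowest of these genes, at 48.2 ± 1.44 TPM with LPL overexpression and 46.1 ± 1.70 TPM in controls, with 0.037 (SE 0.045, edgeR adjusted p = 0.544).

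Among the mitotic kinases, Aurka and Aurkb moved in opposite directions. Aurka, the kinase of the centrosome and spindle poles, had 172, 177, 171 and 173 TPM in the LPL overexpression libraries, against 186, 183 and 182 TPM in the controls. Every LPL overexpression library lay below every control, with a log2 fold change of -0.11 (SE 0.027, edgeR adjusted p = 4.02e-04). Aurkb, the kinase of the chromosomal passenger complex at centromeres, had 134, 129, 130.3 and 134 TPM in the LPL overexpression libraries, against 123, 119.7 and 119 TPM in the controls. Its TPM values with LPL overexpression all lay above those of the controls, with 0.10 (SE 0.028, edgeR adjusted p = 0.00196). Tpx2, the spindle factor that activates Aurora A, was at 217 ± 2.31 TPM with LPL overexpression and 215 ± 4.03 TPM in controls, with -0.0077 (SE 0.025, edgeR adjusted p = 0.832). Birc5, the survivin subunit of the Aurora B complex, was at 175 ± 3.09 TPM with LPL overexpression and 173 ± 0.638 TPM in controls, with -0.011 (SE 0.026, edgeR adjusted p = 0.777). Plk1, a kinase of mitotic entry and spindle assembly, was at 229 ± 10.1 TPM with LPL overexpression and 227 ± 7.03 TPM in controls, with -0.015 (SE 0.029, edgeR adjusted p = 0.726). Foxm1, the transcription factor of the mitotic wave, was at 154 ± 4.68 TPM with LPL overexpression and 154 ± 2.12 TPM in controls, with -0.031 (SE 0.025, edgeR adjusted p = 0.347) and an interval of -0.082 to 0.020.

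Kinetochore and checkpoint genes were mixed as well. Cdc20, the activator of the anaphase-promoting complex, had 410.0, 382, 406 and 402 TPM in the LPL overexpression libraries, against 369.8, 368 and 382 TPM in the controls. Replicate 2 of LPL overexpression stood only just above the highest control in TPM, and the groups overlapped in TMM-scaled CPM. The log2 fold change was 0.073 (SE 0.026, edgeR adjusted p = 0.0205). Cenpe, a kinetochore motor, had 97.4, 102, 99.1 and 95.3 TPM in the LPL overexpression libraries, against 93.2, 91.8 and 87.3 TPM in the controls, a rise of 0.089 (SE 0.026, edgeR adjusted p = 0.00475). Cenpf, a large kinetochore protein, had 62.2, 67.5, 64.0 and 61.8 TPM in the LPL overexpression libraries, against 70.0, 67.6 and 67.1 TPM in the controls. Its replicate 2 of LPL overexpression overlapped the controls in TPM, while in TMM-scaled CPM every LPL overexpression library lay below every control. The log2 fold change was -0.12 (SE 0.027, edgeR adjusted p = 2.36e-04). The checkpoint kinases did not pass. Bub1 was at 102 ± 2.48 TPM with LPL overexpression and 96.4 ± 1.35 TPM in controls, with 0.053 (SE 0.027, edgeR adjusted p = 0.115). Bub1b, the gene of BUBR1, was at 130.1 ± 1.38 TPM with LPL overexpression and 127 ± 1.88 TPM in controls, with 0.0069 (SE 0.025, edgeR adjusted p = 0.854). Ttk, which recruits the checkpoint proteins to kinetochores, was the lowest of all members by TPM, at 36.7 ± 1.67 TPM with LPL overexpression and 36.4 ± 0.214 TPM in controls, with -0.015 (SE 0.038, edgeR adjusted p = 0.794).

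Of the motors and chromosome proteins, Kif23 carried the clearest fall and Mki67 the clearest rise. Kif23 encodes a kinesin of the central spindle that is needed for cytokinesis (ENSMUSG00000032254.10, chromosome 9, 61915905 to 61946774, minus strand, mm10). It had 85.9, 84.2, 86.6 and 81.2 TPM in the LPL overexpression libraries, against 93.7, 94.6 and 90.6 TPM in the controls. No LPL overexpression library reached the controls, and the log2 fold change was -0.17 (SE 0.026, edgeR adjusted p = 5.26e-07). Kif20a, another motor of cytokinesis, was at 156 ± 3.20 TPM with LPL overexpression and 149 ± 2.52 TPM in controls, with 0.045 (SE 0.026, edgeR adjusted p = 0.172). Kif11, the motor that separates the spindle poles, was at 209.9 ± 3.55 TPM with LPL overexpression and 206 ± 2.08 TPM in controls, with 0.0028 (SE 0.025, edgeR adjusted p = 0.940) and an interval of -0.047 to 0.053. Mki67, the gene of the proliferation antigen Ki-67, which coats mitotic chromosomes (ENSMUSG00000031004.8, chromosome 7, 135689784 to 135716361, minus strand, mm10), had 328, 328, 324 and 316 TPM in the LPL overexpression libraries, against 298, 301 and 286 TPM in the controls. The groups were apart, with a log2 fold change of 0.11 (SE 0.025, edgeR adjusted p = 2.75e-04). Top2a, which untangles sister chromatids, had 387, 399, 401 and 382 TPM in the LPL overexpression libraries, against 403, 399 and 398 TPM in the controls. The ranges overlapped in TPM, while in TMM-scaled CPM every LPL overexpression library lay below every control. The log2 fold change was -0.055 (SE 0.024, edgeR adjusted p = 0.0659).

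Here too some calls rested on single libraries. The call of Cdk1 ended without control replicate 2 (0.0556) and control replicate 3 (0.0670), that of Cdc20 without LPL overexpression replicate 1 (0.0723), LPL overexpression replicate 3 (0.0575), control replicate 1 (0.113) and control replicate 2 (0.101), and that of Cenpe without control replicate 3 (0.0520), with edgeR adjusted p in brackets. Ccnb1 passed without LPL overexpression replicate 1 (0.0266) and LPL overexpression replicate 4 (0.0464), Bub1 without LPL overexpression replicate 4 (0.0480), and Top2a, as a fall, without LPL overexpression replicate 2 (0.0391). With all libraries, Ccnb1, Bub1 and Kif20a passed with upper-quartile factors (0.0126, 0.0228 and 0.0359). They also passed on log2(TPM + 0.5) (0.0254, 0.0357 and 0.0401 in limma). Cdk1 also ended with upper-quartile factors (0.0783), and on log2(TPM + 0.5) Cdk1 (0.0716 in limma) and Cenpf (0.0512) both ended. Aurka, Aurkb, Mki67 and Kif23 kept their calls and directions in all 14 alternative settings.

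Separation of the libraries in TPM leaned more to the higher side than the fitted calls did. The TPM groups did not overlap for 12 S-phase members higher and 2 lower with LPL overexpression, and for 8 mitotic members higher and 3 lower. Over all genes tested, 44.9% did not overlap, 27.3% higher and 17.6% lower, where the fitted calls were 21.9% higher and 21.3% lower. The lean of the mitotic members did not hold on TMM-scaled CPM. On that scale Aurkb, Bub1, Mki67 and Cenpe were separated as higher, and Cdk1, Aurka, Top2a, Kif23 and Cenpf as lower. Ccnb1, Cdc20, Bub1b, Kif20a, Rrm1 and Rpa2 were separated in TPM but overlapped in TMM-scaled CPM. Among the members that did not pass, Mcm5, Mcm6, Pcna, Ccnb1, Bub1, Bub1b, Rrm1 and Kif20a were separated in TPM. Of these, Bub1b, Rrm1 and Kif20a had log2 fold changes of 0.0069, 0.028 and 0.045 from the counts.

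**Figure D3:**
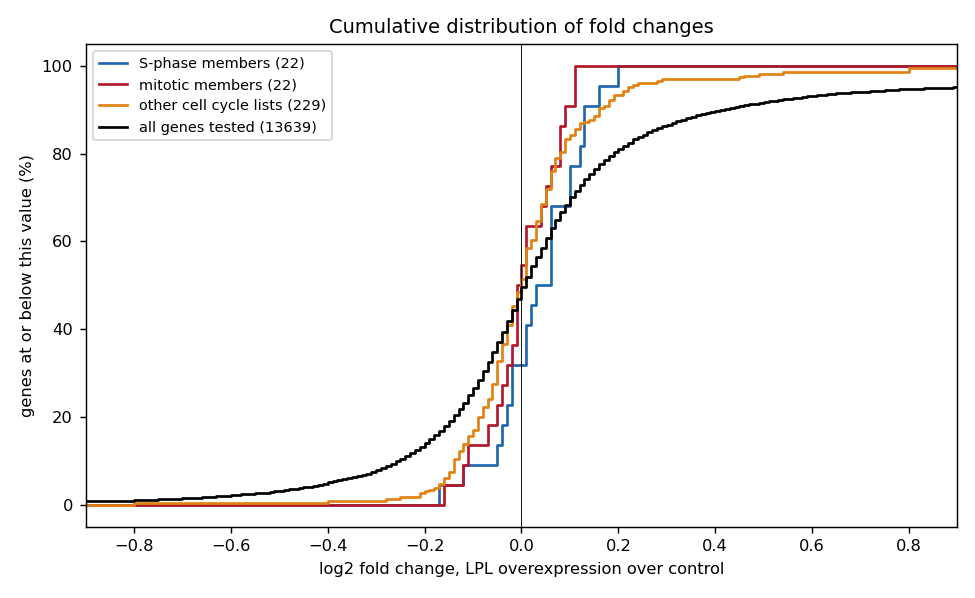
Share of genes (y axis, percent) at or below each log2 fold change of LPL overexpression over control (x axis) for the 22 S-phase members, the 22 mitotic members, 229 genes of the other cell cycle lists and the 13639 genes tested. The member curves rise within 0.2 on either side of 0, the S-phase curve slightly to the right of the mitotic one, and the curve of all genes has longer tails that run beyond the axis.

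By level per length in TPM, Rrm2 was the highest member, at 549 ± 9.85 TPM with LPL overexpression and 557 ± 32.4 TPM in controls (SD, n = 4 and 3), followed by Pcna, and Ttk was the lowest. Cdc20, Mcm3 and Top2a came next after Pcna with group means of 400.2, 398 and 392 TPM with LPL overexpression, and of 373, 375 and 400 TPM in controls. Their order changed between the groups, and within the LPL overexpression libraries they did not differ beyond their spread. Among the MCM2-7 subunits, Mcm3 was highest and Mcm2 lowest in TPM. These ranks rest on the exonic length in the files, which is 6956 bases for Mcm2 and 11012 bases for Rrm1. With the longest APPRIS principal transcript of the GENCODE annotation in its place (3371 and 3997 bases), a choice made after the data had been seen, the highest members were Pcna, Rrm2, Top2a and Birc5, Mcm6 was the highest and Mcm4 the lowest MCM2-7 subunit, and Cdc25c was the lowest member. This ranking divides reads over all exons by the length of a single transcript, which for Birc5 is 947 bases against 3402 exonic bases. The annotation also differs from the gene models of the files, since Cdk1 has 4375 bases by transcript and 3445 exonic bases. Fold changes within a gene do not depend on the length used.

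Libraries of 1 group differed among themselves in the mitotic members. Relative to the mean of the LPL overexpression group, the median log2 deviation of the 22 mitotic members was 0.023 in replicate 2 and 0.014 in replicate 3, against -0.012 in replicate 1 and -0.028 in replicate 4. In replicates 2 and 3, 16 of the 22 mitotic genes lay above the group mean, and in replicates 1 and 4 only 8 and 6 did. For the S-phase members, these medians lay between -0.00069 and 0.0046, with 11, 11, 14 and 10 of 22 above the mean in replicates 1 to 4. Among the controls, 15, 11 and 7 of 22 mitotic members were above their mean. These deviations are a description of single libraries, picked after they were seen and given without a test. Without LPL overexpression replicate 4, the mitotic calls numbered 6 higher and 4 lower, and the median log2 fold change was 0.0091, on the other side of 0 from the value with all libraries.

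**Figure D4:**
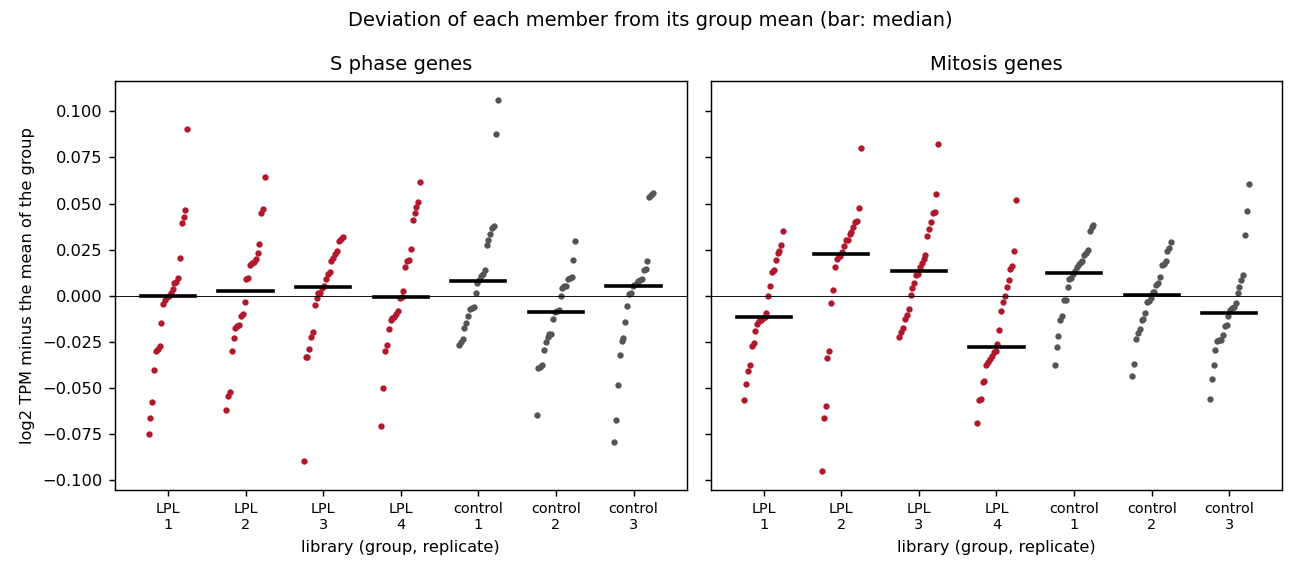
Deviation of each member from the mean of its group in log2 TPM (y axis) for each library (x axis), with the S-phase genes on the left and the mitotic genes on the right. Points are genes and bars are medians, and the mitotic medians of LPL overexpression replicates 2 and 3 lie above 0 while those of replicates 1 and 4 lie below it.

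Promoters of the S-phase and mitotic genes differed in sequence. The choice by name did not read sequence, but the members are genes of the E2F and MuvB waves described above. The split by motif is therefore not independent of that choice. Windows of 300 bases, from 250 before to 50 after the transcription start, came from RefSeq on build GRCm38.p6 and were found for 33 of the 44 members (34 windows, since Mcm7 has 2 starts). The motifs searched on both strands, with overlapping matches counted, were the E2F site (TTTCCCGC, TTTCGCGC, TTTGCCGC or TTTGGCGC), the cell cycle homology region or CHR (TTTGAA or TTCGAA), which MuvB complexes bind, and the CCAAT box of the factor NF-Y (CCAAT). A CHR match was present in 13 of 16 mitotic windows (81.25%) and in 3 of 18 S-phase windows (16.7%), beside 19.2% of the 32851 windows in the table. Both a CHR and a CCAAT match were present in the same 13 mitotic windows, and in 7.525% of all windows. An E2F match was present in 7 of 18 S-phase windows (38.9%) and in 1 of 16 mitotic windows, that of Cdk1, beside 2.265% of all windows. CCAAT was common to both classes, with 13 of 18 S-phase and 15 of 16 mitotic windows, against 37.4% of all. These are matches of letters and not measured binding.

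Promoters of Kif23, Cdk1, Mcm2 and Cdt1 are printed to show these motifs. They are, for each motif, the members with the lowest adjusted p among those that hold it. The windows lie at chr9:61946750-61947049, minus strand, for Kif23, at chr10:69352863-69353162, minus strand, for Cdk1, at chr6:88898731-88899030, minus strand, for Mcm2, and at chr8:122567765-122568064, plus strand, for Cdt1. They are written 5′ to 3′ on the strand of the gene, capitals mark motif matches on either strand, and the 250 bases before the start come first.
Kif23: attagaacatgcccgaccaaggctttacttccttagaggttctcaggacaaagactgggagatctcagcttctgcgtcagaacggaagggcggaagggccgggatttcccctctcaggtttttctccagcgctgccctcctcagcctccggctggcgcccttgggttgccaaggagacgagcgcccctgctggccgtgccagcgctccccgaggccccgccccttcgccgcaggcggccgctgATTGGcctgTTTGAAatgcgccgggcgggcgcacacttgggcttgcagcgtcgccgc
Cdk1: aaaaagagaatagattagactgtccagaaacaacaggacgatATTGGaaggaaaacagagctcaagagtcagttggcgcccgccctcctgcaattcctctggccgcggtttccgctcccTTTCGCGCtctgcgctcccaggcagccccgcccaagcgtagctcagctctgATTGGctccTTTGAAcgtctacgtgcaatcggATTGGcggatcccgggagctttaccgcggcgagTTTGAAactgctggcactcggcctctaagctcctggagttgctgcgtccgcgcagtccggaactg
Mcm2: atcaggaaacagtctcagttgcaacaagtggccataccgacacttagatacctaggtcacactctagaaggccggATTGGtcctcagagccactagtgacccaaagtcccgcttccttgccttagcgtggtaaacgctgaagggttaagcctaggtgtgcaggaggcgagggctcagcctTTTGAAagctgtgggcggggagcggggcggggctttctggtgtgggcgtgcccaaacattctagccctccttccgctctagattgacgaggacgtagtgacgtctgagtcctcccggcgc
Cdt1: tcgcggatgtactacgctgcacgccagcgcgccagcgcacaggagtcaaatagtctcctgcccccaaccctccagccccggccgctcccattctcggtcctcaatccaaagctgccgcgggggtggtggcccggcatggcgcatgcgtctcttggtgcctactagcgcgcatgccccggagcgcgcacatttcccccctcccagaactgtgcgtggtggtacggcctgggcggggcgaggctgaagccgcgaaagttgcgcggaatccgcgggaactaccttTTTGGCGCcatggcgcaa

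In Kif23, which fell, a CCAAT box in reverse (ATTGG) begins 7 bases before the start and is followed by a CHR match (TTTGAA) that begins at base 3 after it. Cdk1, which fell by a smaller amount, holds all 3 kinds of motif: an E2F match 131 bases before the start, CHR matches at 71 and 15 bases before it, and 3 CCAAT matches. Mcm2 is one of 3 S-phase windows with a CHR match, at 70 bases before the start. The E2F match of Cdt1, which rose, begins at base 33 after the start. Of the mitotic members called lower, Kif23, Cenpf, Aurka and Cdk1 all hold a CHR match, as do Mki67 and Cdc20, which were called higher. Top2a, Bub1, Ccnb2, Plk1, Ttk, Bub1b and Kif11, which did not pass, hold one as well. Ccnb1 and Birc5, which did not pass either, hold none in their windows. Cenpe, called higher, holds none in its window, and no window was matched for Aurkb. Of the S-phase members called, Mcm2 holds a CHR match, and Tyms, Mcm10, Cdt1, Mcm3, Rpa2 and E2f1 hold none. No window was matched for Mcm4, Gins1 and Ccne2, which were also called. Whether the direction of change differs with the motif was not tested.

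**Figure D5:**
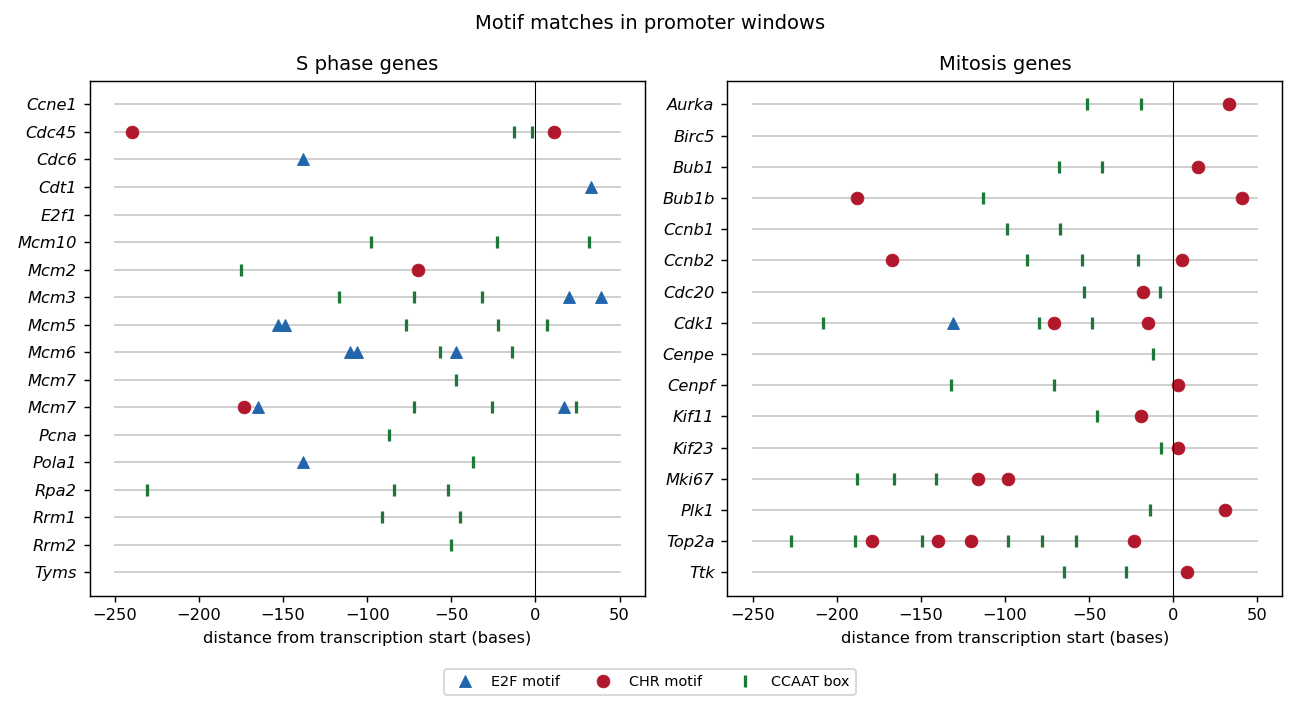
Positions of motif matches (x axis, bases from the transcription start) in the 34 promoter windows of 33 members, by gene. Triangles are E2F matches, circles CHR matches and green ticks CCAAT matches, and CHR matches are present in 13 of 16 mitotic windows and in 3 of 18 S-phase windows.

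The rest of the pathway, in 9 further lists written with earlier results of these data known, was called at a like rate. Of 229 genes tested in these lists, 90 (39.3%) were called, beside 43.2% of all genes tested. A change of 1.25-fold was reached by 9 of the 229, and by 19.6% of all genes tested. Of these 9, 5 were replication-dependent histone genes, which had few counts. Of 43 other genes of origin licensing, the helicase and the fork, 10 rose and 3 fell (median log2 fold change 0.016). Lig1, the ligase that joins lagging strand fragments, rose by 0.19 (SE 0.025, edgeR adjusted p = 1.82e-08) on the log2 scale, and Orc2, a subunit of the origin recognition complex, by 0.23 (SE 0.038, edgeR adjusted p = 1.21e-06). Pola2, the accessory subunit that works with Pola1, fell, with a log2 fold change of -0.15 (SE 0.027, edgeR adjusted p = 4.27e-06). Of 18 nucleotide supply genes, 3 rose and 5 fell (median 0.016). Shmt1, which supplies one-carbon units for thymidylate synthesis, was at 37.8 ± 1.49 TPM with LPL overexpression and 21.5 ± 0.363 TPM in controls, a log2 fold change of 0.79 (SE 0.043, edgeR adjusted p = 6.41e-22). Ppat, of the first step of purine synthesis, and Dut, the dUTPase gene, fell, with -0.16 (SE 0.027, edgeR adjusted p = 1.51e-06) and -0.17 (SE 0.030, edgeR adjusted p = 4.11e-06).

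Calls in the lists of mitotic machinery were no more frequent than over all genes, of which 21.9% were called higher and 21.3% lower. Of 41 other kinetochore and checkpoint genes, 5 rose and 9 fell (median log2 fold change -0.018). Spc24, of the NDC80 complex that binds microtubules, and Zwint fell, with -0.16 (SE 0.036, edgeR adjusted p = 2.80e-04) and -0.10 (SE 0.026, edgeR adjusted p = 8.78e-04), while Cenpp rose with 0.44 (SE 0.12, edgeR adjusted p = 0.00143). Of 29 other spindle and cytokinesis genes, 3 rose and 7 fell (median -0.028). Anln, the gene of anillin, and Prc1, which bundles microtubules of the central spindle where the Kif23 product acts, fell, with -0.15 (SE 0.025, edgeR adjusted p = 1.79e-06) and -0.14 (SE 0.025, edgeR adjusted p = 8.14e-06), while Ckap2, of the spindle, rose with 0.19 (SE 0.026, edgeR adjusted p = 3.55e-08). Of 20 condensin and cohesin genes, 3 rose and 5 fell (median -0.043). Smc2, the condensin core subunit, rose with 0.21 (SE 0.025, edgeR adjusted p = 1.05e-09), as did Wapl, which releases cohesin, with 0.21 (SE 0.028, edgeR adjusted p = 4.93e-09), while Pds5b fell with -0.17 (SE 0.025, edgeR adjusted p = 2.03e-07). The balance of rises and falls was not tested and depends on the scaling, since falls over all 9 lists numbered 52 with TMM and 26 with limma on log2(TPM + 0.5), and rises 38 and 51.

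The lists of cycle regulators and repair genes are read beside the same shares of all genes, 43.2% called, 21.9% higher and 21.3% lower, and they are among the 9 lists whose falls in all numbered 26 with limma on log2(TPM + 0.5) against 52 with TMM. Of 27 other genes of mitotic entry and exit, 4 rose and 10 fell (median -0.0062). Ccnf, the gene of cyclin F, fell with -0.22 (SE 0.027, edgeR adjusted p = 1.25e-09), and Anapc5, a subunit of the anaphase-promoting complex, fell with -0.17 (SE 0.024, edgeR adjusted p = 3.01e-08). Cdk2, which this list also holds, is not a mitotic gene but the kinase partner of the E cyclins at the start of S phase. It rose and was at 156 ± 3.23 TPM with LPL overexpression and 111 ± 2.17 TPM in controls, a log2 fold change of 0.46 (SE 0.030, edgeR adjusted p = 2.69e-18). Cdk2 (chromosome 10, 128697939 to 128705051, minus strand, mm10) lies 1206 bases from the melanosome gene Pmel (128706258 to 128720238, plus strand), which had 545, 499.9, 526 and 535 TPM in the LPL overexpression libraries and 1.49, 1.66 and 1.23 TPM in controls. Of 18 E2F, pocket protein and MuvB genes, 3 rose and 9 fell (median -0.074). Mybl2, the gene of B-MYB, fell with -0.25 (SE 0.036, edgeR adjusted p = 6.10e-08), and E2f6, a repressive E2F, with -0.21 (SE 0.039, edgeR adjusted p = 9.97e-06), while E2f2, at 4.85 ± 0.236 TPM with LPL overexpression and 3.29 ± 0.193 TPM in controls, rose with 0.53 (SE 0.092, edgeR adjusted p = 3.18e-06). Of 24 genes of replication stress and recombination repair, 5 rose and 3 fell (median 0.0096), and the rises included Brca1 with 0.22 (SE 0.032, edgeR adjusted p = 4.08e-08), Fanci with 0.21 (SE 0.041, edgeR adjusted p = 2.98e-05) and the mismatch repair gene Msh6 with 0.13 (SE 0.025, edgeR adjusted p = 2.95e-05). The part of the pigment cell reads in these values was not tested.

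Replication-dependent histone genes, whose RNAs are made in S phase and mostly lack a poly(A) tail, were scarce in all libraries. Only 9 of 70 passed the filter, 13 had no read in any library, and all 70 together held 380 to 484 counts per LPL overexpression library and 356 to 435 per control library. Rn7sk and Rmrp, RNAs that also lack a poly(A) tail and were looked up after the histone counts were seen, had 12 to 23 and 4 to 17 counts with LPL overexpression and 16 to 22 and 12 to 17 in controls, although the labels name a total-RNA kit. Among the 9 tested, 2 rose and 1 fell. Hist1h2bc was at 3.87 ± 0.583 TPM with LPL overexpression and 1.04 ± 0.0685 TPM in controls, with 1.83 (SE 0.32, edgeR adjusted p = 3.61e-06), Hist2h2be at 2.31 ± 0.346 TPM with LPL overexpression and 1.31 ± 0.0650 TPM in controls, with 0.80 (SE 0.19, edgeR adjusted p = 4.02e-04), and Hist1h4d at 3.15 ± 0.556 TPM with LPL overexpression and 5.43 ± 1.27 TPM in controls, with -0.81 (SE 0.30, edgeR adjusted p = 0.0259). Histone genes have near-identical copies among which reads can be divided, and at these counts they were not read further.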

How the data were processed

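RNA of 7 libraries of MS-1 cells was sequenced with a stranded total-RNA kit, per the labels' protocols. The submitters' processing notes name STAR and build mm10, and reads were counted with featureCounts, per the deposited file names. Versions and gene models were not given in the sources used here. For every library, the deposited table holds read counts per gene in both orientations, in the reverse one, and the authors' TPM for the reverse orientation, per the file headers. The reverse orientation held 97.0 to 97.1% of the counts and was used.

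Counts were tested with edgeR 4.0.16 in R 4.3.3 (quasi-likelihood F test, TMM factors, filterByExpr, robust, group as the only term), with Benjamini-Hochberg adjustment over all 13639 genes that passed the filter. Intervals of 95% were taken from the fit's SE. Alternatives, 14 in all, used DESeq2 1.42.0, limma 3.58.1 on log2(TPM + 0.5) and log2(TPM + 1), both orientations, no filter, upper-quartile factors, a replicate block, and each library left out in turn. Counts of 24328418 to 29210847 per library limit precision, and counting error is only part of the spread between libraries.

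The members and lists were chosen with earlier results of these data known. All 44 members are named. Of each other list, up to 3 called genes with the lowest adjusted p are named. Promoters printed are, for each motif, up to 2 holders with the lowest adjusted p. Sgo1 and Sgo2a were matched under the older symbols in the files. Promoter windows came from RefSeq (GRCm38.p6).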

Additional observations from a re-analysis of the deposited data

How the results depend on the processing

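Of the 18 called members, 12 passed in all 14 alternative settings, and no estimate of a called member changed sign. Calls of 6 members were lost in at least 1 setting and 8 further members passed in at least 1. The scaling moved the mitotic split most: 7 members were higher with upper-quartile factors and in both TPM settings (limma on log2 values with 0.5 or 1 added), and 2 were lower in both TPM settings. The other cell cycle lists held 26 lower calls in both TPM settings. The median log2 fold change was 0.069 for the S-phase members and 0.018 for the mitotic members in both TPM settings, and 0.027 and 0.025 over all genes on log2(TPM + 0.5) and log2(TPM + 1). With summed TMM-scaled CPM in place of TPM the ratio of group means was 1.03 for S-phase and 0.998 for mitotic members. The median of the mitotic members lay between -0.014 and 0.0091 with each library left out in turn. In the 200 bases nearest the start, 1 S-phase promoter held both CHR and CCAAT. The cause of these shifts was not tested.

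Whether replicate numbers pair the libraries was not settled. The mean of each group was subtracted from the log2 CPM of each gene, and these deviations were correlated over genes between libraries of the groups. Same-numbered libraries had Pearson correlations of their deviations of -0.019, -0.039 and 0.019. With the replicate block on 6 libraries, 9 S-phase members were higher and 2 lower, 4 mitotic members were higher and 4 lower, and 3010 genes were higher and 2727 lower over all genes, and Mcm3 did not pass (edgeR adjusted p = 0.0542). Without the block, the same 6 libraries gave 6 higher and 4 lower mitotic members. Libraries of unlike number had correlations from -0.045 to 0.044. Subtracting the group means ties these values to each other, and LPL overexpression replicate 4 has no control of its number. The correlations therefore cannot decide whether the numbers mark pairs.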
